A study of Mus musculus with 6 samples.

Results

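A set of 32 genes was described, made up of chaperones, cochaperones and chaperonin subunits and their regulator Hsf1, out of 16909 genes with a count. The members were given as a list of symbols. Of these, 29 were mapped to gene identifiers through the authors' deposited table and 3 (Hspa1a, Hspa1b and Hspb8) through a reference table of gene names. From textbook knowledge, 12 were classed as stress-inducible, 16 as constitutive and 4 (Dnaja1, Stip1, Hspd1 and Hspe1) as intermediate, meaning present at rest and raised by heat. The working name of the set is cytosolic, yet Hspd1 and Hspe1 encode the mitochondrial chaperonin and its cap.

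Heat shock proteins are molecular chaperones that hold, refold or hand on unfolded proteins. Hsp70 works in cycles driven by J-domain proteins and nucleotide exchange factors and passes clients such as kinases and receptors to Hsp90, while the TRiC chaperonin folds newly made actin and tubulin inside a closed chamber. The transcription factor Hsf1 is held in check by these chaperones in resting cells and raises the stress-inducible members through heat shock elements in their promoters when unfolded proteins build up, so that low oxygen and its return are a setting in which this group is often measured.

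RNA was from MLE-12, a wild-type-labelled mouse lung epithelial cell line. In the I/R + Dex group, cells received 10 µM dexmedetomidine, a sedative that activates alpha-2 adrenergic receptors, for 12 h, then 12 h at 1% oxygen and 4 h of reoxygenation. The I/R group had the same hypoxia and reoxygenation without the drug. Each group had 3 libraries, called independent biological replicates and placed in 1 batch by the labels, and no library of cells kept at normal oxygen was used here.

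Total gene counts were 2333546 to 2586743 in I/R + Dex and 2607952 to 2941989 in I/R, and 3 counts, the upper limit for a count of 0, stand for 1.02 to 1.29 CPM (counts scaled to a common library size). Of 10 lung epithelial markers, 7 (Krt8, Krt18, Cldn4, Nkx2-1, Sftpc, Sftpb and Sftpa1) were at 0 in all 6 libraries, and Abca3 alone passed the filter on low counts. All 6 mesenchymal markers passed it, with a summed level of 904.1 to 1100 CPM in I/R + Dex and 886.5 to 1040 CPM in I/R. Most of this sum was Vim (mean 505.7 CPM in I/R + Dex, 482.2 in I/R) and Fn1 (421.1 in I/R + Dex, 392.0 in I/R). Col1a1, Col1a2 and Col3a1 had group means of 20.2 to 25.3 CPM. Pdgfra averaged 2.77 CPM in I/R + Dex and 4.51 CPM in I/R. The 3 leukocyte markers summed to 21.2 to 27.1 CPM in I/R + Dex and 17.4 to 25.3 CPM in I/R. None of the 3 endothelial markers (Pecam1, Cdh5 and Kdr) passed the filter, and their sums did not overlap, at 8.52, 10.54 and 5.82 CPM in I/R + Dex and 4.21, 2.41 and 1.55 CPM in I/R. Of single genes tested, 4.56% separated in this direction. The part of these markers in the results was not tested. In bulk RNA, fewer cells expressing a gene and less RNA per cell cannot be told apart.

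The promoter sequences examined for this group are the heat shock elements, the binding sites of heat shock factors. They were not used to class the members. Promoters were taken from RefSeq (GRCm38.p6, 250 bases before to 50 after the start), which matched 26 of the 32 members, and the element was searched on both strands as 2 facing units, GAANNTTC or TTCNNGAA, both of which read the same on either strand. By gene, 15 of 26 members (57.7%) held such a pair, against 17.0% of 27025 genes in the table. The share was 70.0% for the stress-inducible members (7 of 10), 75.0% for the intermediate (3 of 4) and 41.7% for the constitutive (5 of 12). These shares leave out the members without a matched promoter. Those are Hsp90aa1 and Cryab among the stress-inducible genes and Hspa8, Hsp90ab1, Hsf1 and Cct4 among the constitutive ones. A longer element of 3 units, GAANNTTCNNGAA or TTCNNGAANNTTC, chosen after the first search was seen, was held by 5 members (Chordc1, Dnajb6, Hspd1, Hspe1 and Hsph1), or 19.2%, against 0.662% of all genes. A match is a run of letters and not a measured binding site. Stretches around upstream elements are shown for several members. Dnajb6, classed as constitutive, has the longer element and had the lowest p of the group. The other holders of the longer element lay on both sides of 0. Their log2 fold changes (I/R + Dex over I/R) were 0.41 for Chordc1, 0.20 for Hspd1, -0.25 for Hspe1 and -0.32 for Hsph1. Whether the element bears on the changes was not tested. Hspa1a and Hspa1b, the classic inducible pair, were nearly uncounted. Capitals mark the element, of which the Hspb1 run holds 2 copies, and each run is read 5′ to 3′ on the strand of its gene.
Dnajb6, chr5:29735812-29735897, + strand, element from base -46: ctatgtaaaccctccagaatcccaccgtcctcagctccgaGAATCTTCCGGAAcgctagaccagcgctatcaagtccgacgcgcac
Hspe1, chr1:55088019-55088116, + strand, element from base -89: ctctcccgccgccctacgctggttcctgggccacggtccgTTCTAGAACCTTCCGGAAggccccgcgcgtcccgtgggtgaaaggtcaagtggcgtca
Hspb1, chr5:135887762-135887849, + strand, first element from base -117: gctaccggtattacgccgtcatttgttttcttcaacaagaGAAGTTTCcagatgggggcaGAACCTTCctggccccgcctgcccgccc
Hspa1a, chr17:34972213-34972300, - strand, element from base -104: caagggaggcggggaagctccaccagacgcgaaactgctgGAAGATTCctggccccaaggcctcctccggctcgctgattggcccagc
Hspa1b, chr17:34959295-34959382, - strand, element from base -104: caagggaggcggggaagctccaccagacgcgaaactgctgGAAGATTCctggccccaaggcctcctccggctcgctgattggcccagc
Hspd1 and Hspe1 are transcribed away from each other, and the 98 bases printed for Hspe1 are, read on the other strand, the upstream stretch of Hspd1 as well, so this element of 18 bases belongs to both. Hspa1a and Hspa1b had the same 88 bases. Dnajb1 held neither form of the element in either of its 2 promoter windows.

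Comparing I/R + Dex with I/R asks whether dexmedetomidine given before low oxygen altered the chaperone transcripts. No member passed an adjusted p of 0.05 in edgeR's quasi-likelihood test over all genes, where 5 of 7412 genes (0.0675%) did. Of the 28 members with enough counts to be tested, 14 had a value above and 14 below 0, against 51.1% of all genes below 0. At an unadjusted p under 0.05 there were 2 members, Dnajb1 and Dnajb6, both lower in I/R + Dex, where the share over all genes was 3.39% in either direction and 1.65% lower. DESeq2 gave 0 members at an adjusted p of 0.05, where 17 of 8686 genes passed (0.196%). It gave 2 members at an unadjusted p under 0.05, against 1.82% of 16882 genes. Those 16882 include genes with too few counts for the edgeR filter, so this share is not like the 3.39%. With limma voom, 0 members passed an adjusted p of 0.05 (0.0135% of all genes). For 24 of the 28 the 95% interval of the log2 fold change lay within a 2-fold change either way, so larger shifts of those genes were outside their intervals.

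**Figure D1:**
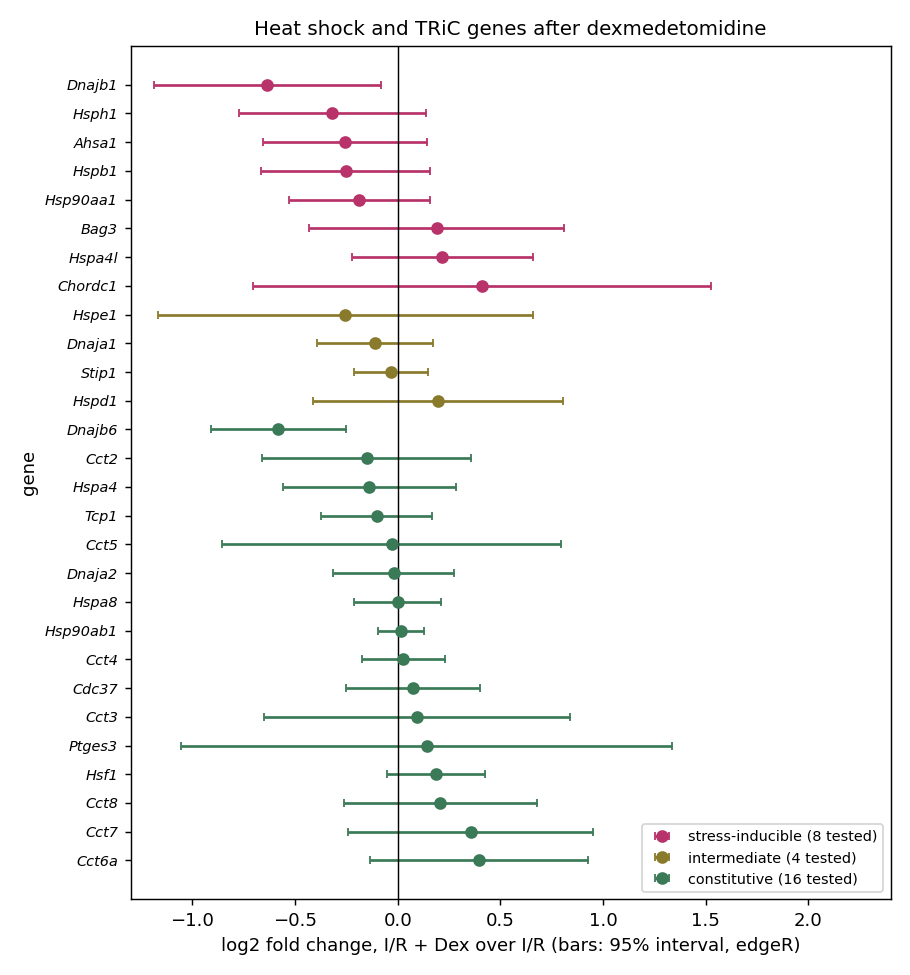
Log2 fold change for I/R + Dex over I/R (x axis) for the 28 tested genes (y axis), with 95% intervals from edgeR (3 libraries per group), coloured by class. The intervals of Dnajb1 (-1.19 to -0.08) and Dnajb6 (-0.91 to -0.25) lie below 0 and the other 26 cross it.

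The stress-inducible members had a median log2 fold change of -0.22 over the 8 that were tested, with 3 above and 5 below 0. Among the 16 constitutive members the median was 0.02, with 10 above and 6 below 0, and among the 4 intermediate members it was -0.07, beside a median of -0.01 over all genes. Which members passed the filter shapes the first of these medians, since 4 of the 12 inducible genes did not. The 2 medians nearest 0 changed sign with the data used: the constitutive one was -0.020 without I/R replicate 2 and the intermediate one 0.0012 with near-identical copies added. Whether the classes differ was not tested.

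Summed over the 12 stress-inducible genes, the level was 1317, 1181 and 1384 CPM in I/R + Dex, against 1655, 1444 and 1457 CPM in I/R. All I/R + Dex sums lay below all I/R sums, as was so for 4.57% of single genes tested. The means were 1294 ± 103.5 CPM in I/R + Dex and 1519 ± 117.8 CPM in I/R (SD, n = 3 each), and whether they differ was not tested. Hsp90aa1 and Dnajb1 carried most of this gap of -224.9 CPM. Without these genes, a choice made after the values were seen, the sums were 459.4, 413.7 and 486.0 CPM in I/R + Dex and 420.5, 552.4 and 546.2 CPM in I/R, which overlap. The constitutive genes summed to 5322 ± 247.4 CPM in I/R + Dex and 5111 ± 319.3 CPM in I/R (SD, n = 3 each), and their groups overlapped.

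Among the Hsp70 genes, the inducible pair was nearly uncounted in both groups. Hspa1a and Hspa1b, the main heat-induced Hsp70 proteins, together had 3, 6 and 3 counts in I/R + Dex and 0, 2 and 2 counts in I/R, at most 2.64 CPM. The groups did not overlap, with all I/R + Dex libraries above all I/R libraries, as was so for 4.56% of all genes tested. Over all libraries the 16 counts were 0.143% of those of Hspa8, the constitutive Hsp70. Hspa1a and Hspa1b are 99.23% identical over 2201 bases. How reads that fit both genes were counted is not known, so the counts may understate the level of the pair. Most of these values lie at or under the floor of 3 counts, so no fold change is given, and with no filter the summed pair had an unadjusted p of 0.327 and an adjusted p of 0.887 in edgeR.

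Hspa8 itself had 734.8, 724.7 and 720.3 CPM in I/R + Dex and 795.9, 752.8 and 630.8 CPM in I/R. The I/R + Dex libraries lay inside the range of the I/R libraries, and the log2 fold change was 0.00 (SE 0.09, interval -0.21 to 0.21, adjusted p = 0.9999 in edgeR).

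The Hsp110 genes, which act as exchange factors for Hsp70, also overlapped between groups. Hsph1, the heat-inducible one, had 75.92, 74.23 and 51.93 CPM in I/R + Dex and 70.02, 87.93 and 93.87 CPM in I/R. Its log2 fold change was -0.32 (SE 0.19, interval -0.77 to 0.14). Hspa4 had 151.1, 170.4 and 105.1 CPM in I/R + Dex and 162.2, 143.8 and 163.4 CPM in I/R (log2 fold change -0.14, SE 0.18). Its inducible relative Hspa4l averaged 42.56 ± 4.34 CPM in I/R + Dex and 36.59 ± 5.56 CPM in I/R (SD, n = 3 each). The ratio of Hspa4l to Hspa4 counts, which does not depend on library scaling, was 0.259, 0.278 and 0.391 in I/R + Dex and 0.186, 0.271 and 0.248 in I/R. An exact two-sided permutation test of this ratio gave p = 0.2 (0.4 adjusted over the 2 ratios tested), where the smallest p that 3 against 3 allows is 0.1.

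Bag3 links Hsp70 to selective autophagy and is strongly heat-inducible in most cells. It had 32.15, 43.04 and 31.99 CPM in I/R + Dex and 21.43, 37.24 and 35.15 CPM in I/R, with overlapping groups and a log2 fold change of 0.19 (SE 0.26).

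The 4 J-domain genes, whose products deliver clients to Hsp70 and trigger its ATPase, all had values below 0, with a median log2 fold change of -0.35. Dnajb1, the inducible partner of Hsp70 that also feeds back on Hsf1, lies on chromosome 8 at 84334822-84339282 (GRCm39, + strand). It had 121.2, 127.4 and 149.5 CPM in I/R + Dex and 248.7, 136.2 and 233.3 CPM in I/R. I/R replicates 1 and 3 were high, while replicate 2 lay between the I/R + Dex libraries, so the groups overlapped. The log2 fold change was -0.63 (SE 0.23, interval -1.19 to -0.08, unadjusted p = 0.0299, adjusted p = 0.9999 in edgeR).

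Leaving out I/R replicate 2 moved the Dnajb1 value to -0.86 with an adjusted p of 0.272 in edgeR, and over the other alternatives the adjusted p was 0.760 to 1.0. Of the 32 members Dnajb1 is among those for which no near-identical copy with counts was found. All its counts were on a single transcript, so neither counted copies nor a split among transcripts touches its value.

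Dnajb6, a suppressor of protein aggregation that is present without stress, lies on chromosome 5 at 29940686-29991476 (GRCm39, + strand). Like Hspe1, it has the longer heat shock element in the stretch printed above. Its level was 49.97, 49.63 and 43.62 CPM in I/R + Dex and 76.91, 70.69 and 66.83 CPM in I/R. All I/R + Dex libraries were below all I/R libraries, which among all genes was so for 4.57%. The log2 fold change was -0.58 (SE 0.14, interval -0.91 to -0.25, unadjusted p = 0.00405, adjusted p = 0.968 in edgeR).

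Adding the counts of its 6 near-identical processed pseudogenes, which held 56.9% of the summed counts, gave 114.7, 135.2 and 138.7 CPM in I/R + Dex and 157.7, 146.2 and 144.1 CPM in I/R. These sums still did not overlap, with a log2 fold change of -0.21 (SE 0.11, unadjusted p = 0.104). Reads of Dnajb6 and of these copies may have been split by the counting, so the value of the gene alone is uncertain.

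Dnaja1 and Dnaja2, which serve Hsp70 at membranes and in protein import, showed smaller shifts. Dnaja1 had 354.0, 345.2 and 343.1 CPM in I/R + Dex and 360.8, 320.0 and 443.1 CPM in I/R, a log2 fold change of -0.11 (SE 0.12). Dnaja2 was the most counted J-domain gene, at 758.4 ± 102.1 CPM in I/R + Dex and 768.9 ± 92.1 CPM in I/R (SD, n = 3 each). Both had overlapping groups.

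**Figure D2:**
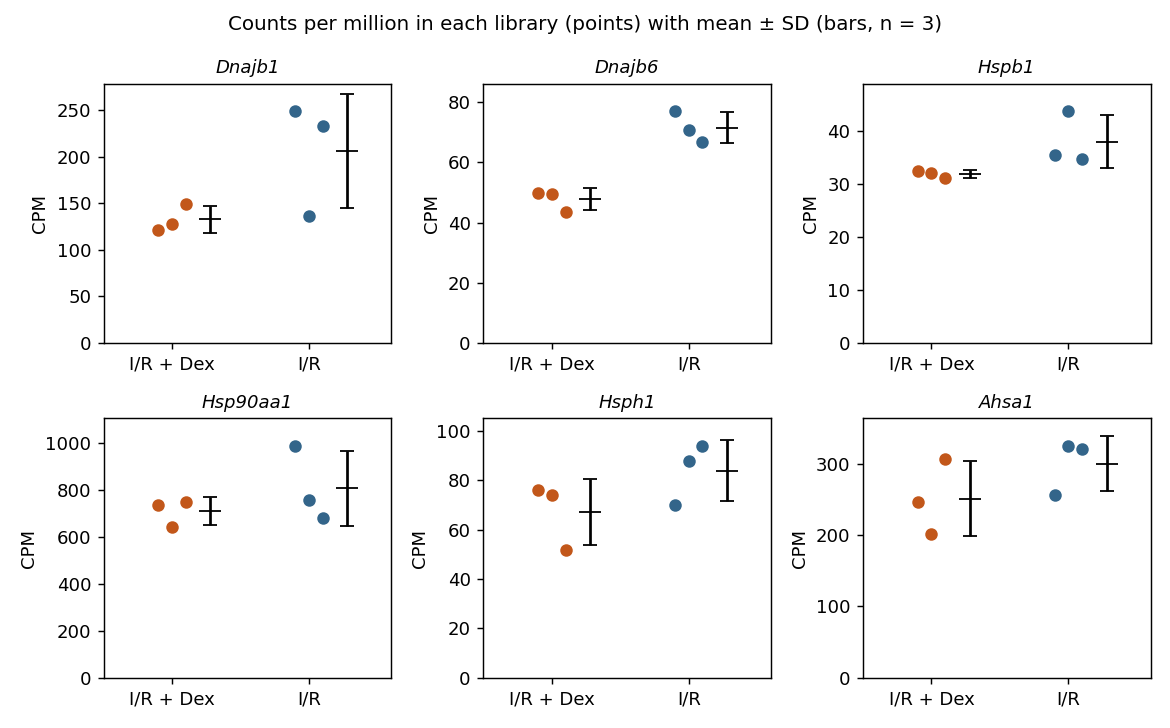
CPM (y axis, from 0) of 6 genes in each I/R + Dex and I/R library (points), with the mean ± SD of 3 libraries (bars). The groups do not overlap for Dnajb6 and Hspb1, while for Dnajb1 the I/R library at 136.2 CPM lies among the I/R + Dex values.

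Hsp90 is made from an inducible and a constitutive gene. Hsp90ab1, the constitutive one, was the member with the highest level, at 538.7 FPKM over all libraries, and had 1703, 1628 and 1584 CPM in I/R + Dex and 1585, 1661 and 1614 CPM in I/R. Its groups overlapped, and its interval was the narrowest of all members (log2 fold change 0.02, SE 0.05, interval -0.10 to 0.13). Hsp90aa1, the inducible one, had 736.4, 639.5 and 748.1 CPM in I/R + Dex and 985.3, 755.9 and 677.6 CPM in I/R. A single library, I/R replicate 1, stood above the rest, and without it the log2 fold change of -0.19 (SE 0.14) became -0.01.

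The ratio of Hsp90aa1 to Hsp90ab1 counts was 0.432, 0.393 and 0.472 in I/R + Dex and 0.622, 0.455 and 0.420 in I/R. It differed by -0.19 on the log2 scale (-0.02 without I/R replicate 1), less than the spread in I/R (SD 0.30), with p = 0.5 in the exact two-sided permutation test (0.5 adjusted over the 2 ratios tested).

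The cochaperones of Hsp90 overlapped between groups. Ahsa1, which speeds its ATPase, had 246.4, 201.2 and 306.2 CPM in I/R + Dex and 255.6, 324.8 and 321.0 CPM in I/R (log2 fold change -0.26, SE 0.17). Stip1, the adaptor that joins Hsp70 to Hsp90, averaged 589.2 ± 19.97 CPM in I/R + Dex and 602.4 ± 50.6 CPM in I/R, and Cdc37, which brings kinases to Hsp90, averaged 215.2 ± 35.5 CPM in I/R + Dex and 204.2 ± 16.6 CPM in I/R (SD, n = 3 each). Chordc1 was low and variable, at 26.73, 10.98 and 18.28 CPM in I/R + Dex and 6.89, 15.17 and 20.09 CPM in I/R, and had the highest value of the tested members, a log2 fold change of 0.41, with a wide interval (-0.70 to 1.53). That value and its rank rested on single libraries: it was 0.059 without I/R + Dex replicate 1, 0.090 without I/R replicate 1, 0.68 without I/R + Dex replicate 2 and 0.75 without I/R replicate 3. Ptges3, the p23 cochaperone, had 8 to 18 counts in any library.

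The small heat shock proteins hold unfolded proteins without using ATP. Hspb1 was the only one of 3 members to pass the filter on low counts, with 32.54, 32.06 and 31.16 CPM in I/R + Dex and 35.59, 43.79 and 34.77 CPM in I/R. The I/R + Dex libraries were close together and all lay below the I/R libraries, with a log2 fold change of -0.25 (SE 0.18, interval -0.67 to 0.16, unadjusted p = 0.190, adjusted p = 0.9999 in edgeR). Together with Dnajb6 it made 2 members whose groups did not overlap, both lower, while among the 28 tested members none was higher (9.13% of all genes tested had no overlap, 4.57% lower and 4.56% higher).

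Hspb8, which works with Bag3, had 10, 0 and 2 counts in I/R + Dex and 2, 0 and 0 counts in I/R. Cryab, the alpha-B crystallin, had 4, 5 and 8 counts in I/R + Dex and 0, 11 and 0 counts in I/R. Both had libraries at 0, so no fold change is given. A further 6 small heat shock genes outside the set (Cryaa, Hspb2, Hspb3, Hspb6, Hspb7 and Hspb11) were at 0 in all 6 libraries.

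The mitochondrial chaperonin pair was counted very unequally although it shares the promoter shown above. Hspd1, its barrel, had 721.7, 621.1 and 527.6 CPM in I/R + Dex and 347.8, 600.0 and 684.5 CPM in I/R, with I/R replicate 1 far below the others. Its log2 fold change of 0.20 (SE 0.25) became -0.04 without that library. Hspe1, its cap, had only 13, 21 and 16 counts in I/R + Dex and 22, 21 and 24 counts in I/R, a log2 fold change of -0.25 (SE 0.39). Per length, Hspd1 stood at 219.2 FPKM and Hspe1 at 5.14 FPKM over all libraries. Near-identical copies held 52.5% of the counts summed over Hspd1 and its copy, and 44.5% for Hspe1. How reads that fit a gene and a copy were counted is not known, so both levels are uncertain.

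Processed pseudogenes, copies of a spliced transcript inserted elsewhere in the genome, took a large part of the counts of this group. For 12 members another annotated transcript with counts was at least 90% identical over at least 200 bases, and for 6 of them (Ptges3, Hspb1, Dnajb6, Dnaja1, Hspd1 and Hspa1b) such copies, Hspa1a in the case of Hspa1b, held more counts than the gene itself. Ptges3 had 78 counts over the 6 libraries and Ptges3-ps, identical to it over 480 bases, had 2034. For Hspd1 the gene had 8968 counts and Hspd1-ps3 had 9903, and for Hspa8 the gene had 11177 and its copies 8759.

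**Figure D3:**
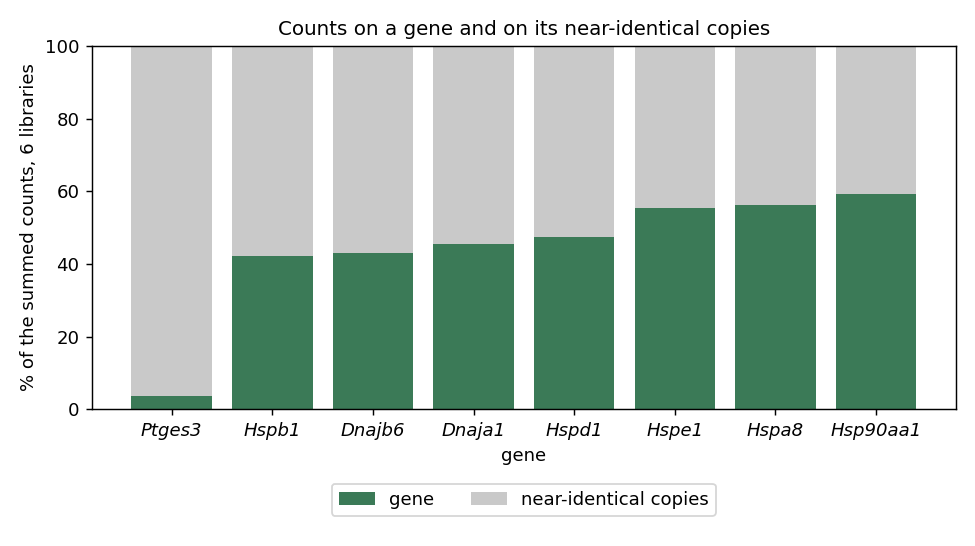
Percentage of the counts summed over a gene and its near-identical copies (y axis) that were on the gene (green) and on the copies (grey), for the 8 genes whose copies had at least 50 counts in the 6 libraries. The copies held 96.3% for Ptges3 and 40.7% for Hsp90aa1.

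Hspb1 shows how little separates a gene from its copy. Its coding sequence of 630 bases differed from the processed pseudogene Hsp25-ps1 on chromosome 13 at 4 positions, counted from the first base of the start codon (C6T, G559A, T561C and T609C, the base of Hspb1 first). Bases 495 to 614 hold 3 of the 4, in capitals, in the transcripts of GENCODE vM21. The stretch is shown because it holds most of the differences. Between bases 6 and 559 there is none, so a read pair of 150 bases per end can lie there without covering any.
Hspb1: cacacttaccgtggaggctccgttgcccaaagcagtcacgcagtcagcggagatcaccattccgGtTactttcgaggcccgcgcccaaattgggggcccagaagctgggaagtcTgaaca
Hsp25-ps1: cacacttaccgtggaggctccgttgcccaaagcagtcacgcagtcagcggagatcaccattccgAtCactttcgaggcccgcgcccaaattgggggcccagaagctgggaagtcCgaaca
Hsp25-ps1 had 117, 120 and 111 counts in I/R + Dex and 118, 151 and 123 counts in I/R, against 84, 73 and 75 counts in I/R + Dex and 93, 127 and 90 counts in I/R for Hspb1. With both added the log2 fold change was -0.11 (SE 0.12), and the CPM of 77.89, 84.71 and 77.26 in I/R + Dex and 80.75, 95.85 and 82.31 in I/R overlapped.

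With copies added throughout, the median of the stress-inducible members was -0.12, and no member passed the threshold. The summed level of the inducible class, copies included, was 1890, 1747 and 1921 CPM in I/R + Dex and 2194, 2024 and 2050 CPM in I/R, still without overlap (4.57% of single genes tested separated in this direction).

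The 8 TRiC subunits form rings that hold each subunit once, and their transcripts were far from equal. By the authors' gene FPKM, Cct7 was highest, at 79.59, 131.8 and 128.2 FPKM in I/R + Dex and 113.2, 80.58 and 69.71 FPKM in I/R. Cct5 had the lowest mean, at 5.12, 7.86 and 4.22 FPKM in I/R + Dex and 4.91, 4.70 and 7.90 FPKM in I/R. In gene FPKM within a library, the highest subunit was 15.6, 16.8 and 30.4 times the lowest in I/R + Dex and 23.1, 17.2 and 9.79 times the lowest in I/R. Cct7 was the highest in all 6 libraries and Cct5 the lowest in 5.

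Between these, Cct4 averaged 62.2 FPKM over all libraries, Tcp1 27.4, Cct8 27.0, Cct3 20.5, Cct6a 9.09 and Cct2 8.14 FPKM. The ranges over the 6 libraries did not overlap between Cct7 and Cct4, between Cct4 and Tcp1, or between Cct3 and Cct6a. Tcp1, Cct8 and Cct3 overlapped with each other, as did Cct6a, Cct2 and Cct5. By the authors' mean FPKM of the most counted transcript, Cct3 lay above Cct8 instead, at 37.67 in I/R + Dex and 52.08 in I/R. Cct8 had 35.56 in I/R + Dex and 29.87 in I/R. Cct7 was still highest (305.9 in I/R + Dex, 233.4 in I/R) and Cct5 lowest (6.90 in I/R + Dex, 6.74 in I/R). The order and the ratios thus depend on which FPKM is used.

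**Figure D4:**
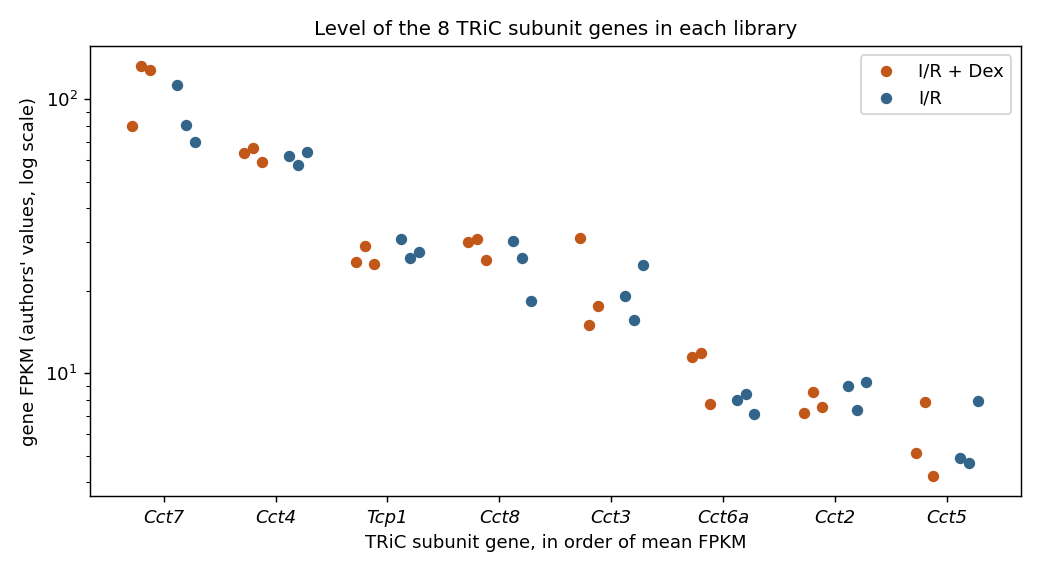
FPKM of the 8 TRiC subunit genes (y axis, log scale) in each I/R + Dex and I/R library, with genes in order of their mean. Cct7 lies between 69.7 and 132 FPKM in every library, and Cct6a, Cct2 and Cct5 lie between 4.22 and 11.8 FPKM.

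No TRiC subunit passed the test. Of the 8 log2 fold changes, 5 were above 0 and 3 below, with a median of 0.06 and a range of -0.15 to 0.40. The values farthest above 0 were those of Cct6a, with 40.67, 41.73 and 27.00 CPM in I/R + Dex and 28.32, 29.65 and 25.11 CPM in I/R (0.40, SE 0.23, unadjusted p = 0.121), and of Cct7 (0.36, SE 0.25). Both had overlapping groups. Cct4 was the steadiest, at 270.0, 281.1 and 246.3 CPM in I/R + Dex and 264.8, 244.8 and 272.7 CPM in I/R (0.03, SE 0.09). For Cct3 the sign rested on I/R + Dex replicate 1, which had 200.3 CPM where the other two I/R + Dex libraries had 96.63 and 111.3 and the I/R libraries 123.2, 100.7 and 159.5. Without that replicate its log2 fold change of 0.09 became -0.30.

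Hsf1, the factor that drives the inducible members, was well counted in every library. It had 303.3, 354.9 and 298.3 CPM in I/R + Dex and 287.4, 298.6 and 255.0 CPM in I/R. The lowest I/R + Dex library lay just below the highest I/R library, and the log2 fold change was 0.19 (SE 0.10, interval -0.05 to 0.42, unadjusted p = 0.110, adjusted p = 0.9999 in edgeR). Of the genes outside the set that act on it, Hsf2 had a log2 fold change of -0.04 and Hsbp1, whose product binds Hsf1 and dampens it, one of 0.08.

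At the level of transcripts, 123 transcripts of the 32 genes had counts and 42 had enough to be tested, and none passed an adjusted p of 0.05 in edgeR, where none of 9882 transcripts did (0.0%). A single member transcript had an unadjusted p under 0.05 (2.92% of all transcripts), and DESeq2 gave 0 member transcripts at an adjusted p of 0.05, where 73 of all (0.489%) passed. In the authors' deposited table, 76 transcripts of these genes are listed and 0 are marked as significant, against 0.577% of all 18021.

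That 1 transcript was the longer coding form of Dnajb6 (ENSMUST00000008733, 2918 bases), with 22, 14 and 28 counts in I/R + Dex and 55, 55 and 52 counts in I/R. Its groups did not overlap and its log2 fold change was -1.19 (SE 0.32, unadjusted p = 0.0118, adjusted p = 1.0 in edgeR). In the authors' deposited table it has -1.19 with a p-value of 0.000978 and an adjusted p-value of 0.0984. It was the only member transcript of at least 10 counts with a 2-fold difference and no overlap, which 3.61% of the 9781 tested transcripts with a mean of at least 10 counts in a group also showed. The shorter form (ENSMUST00000012734, 1024 bases), with most of the gene's counts, had 97, 99 and 76 counts in I/R + Dex and 143, 150 and 109 in I/R (log2 fold change -0.40, SE 0.21). Its CPM overlapped between the groups. Whether the forms of Dnajb6 differ in their response was not tested.

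For other members the split of counts among transcripts jumped between libraries of 1 group. Of the 27 members with at least 100 counts, the most counted transcript held over 90% in every library for 9, and for another 9 (Dnaja1, Hsf1, Tcp1, Cct3, Hspa4, Hspb1, Hsph1, Hspe1 and Chordc1) its share spanned more than 50 percentage points.

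Hsf1 gives the clearest case. Its main coding transcript (ENSMUST00000226872) had 665, 677 and 637 counts in I/R + Dex and 681, 756 and 0 counts in I/R. In I/R replicate 3, where it was at 0, a transcript annotated for nonsense-mediated decay (ENSMUST00000228868) had 294 counts and another coding one (ENSMUST00000227478) had 235, against 0 to 26 and 0 in the other libraries. The gene total in that library was 660 counts. Dnaja1 behaved in a similar way, its transcript ENSMUST00000030118 having 0, 0 and 758 counts in I/R + Dex and 633, 48 and 1099 counts in I/R while the gene stayed between 786 and 1147. Gene totals were steadier than these splits.

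**Figure D5:**
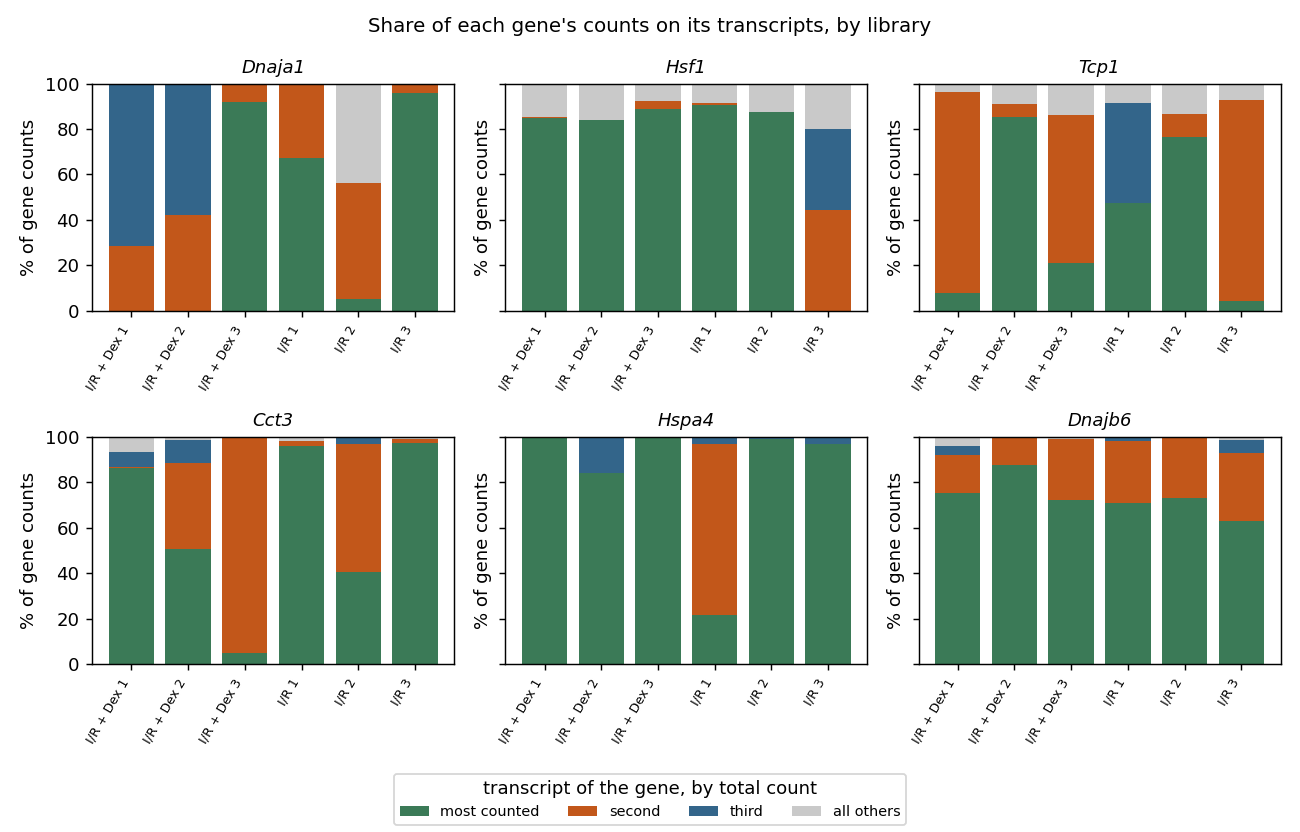
Percentage of a gene's counts (y axis) on each of its 3 most counted transcripts and on all others, in each I/R + Dex and I/R library (x axis), for 6 genes. The main Hsf1 transcript falls to 0 in I/R replicate 3, while the main Dnajb6 transcript holds 63.0% to 87.6% in every library.

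Around the set, 77 further genes of the chaperone network in 10 lists were counted. Of these, 53 were tested, 28 with values above and 25 below 0, a median log2 fold change of 0.00, and 0 at an adjusted p of 0.05 in edgeR. None had an unadjusted p under 0.05 either. The endoplasmic reticulum Hsp70 gene Hspa5, also called BiP, had the lowest p, with 1414, 2646 and 1431 CPM in I/R + Dex and 1207, 1242 and 1368 CPM in I/R (log2 fold change 0.52, SE 0.25, unadjusted p = 0.0759). All its I/R + Dex libraries were above the I/R libraries (so for 4.56% of all genes tested), and I/R + Dex replicate 2 stood far above the rest.

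The J-domain proteins outside the set did not lie to one side, with 9 of the 15 tested above 0 and a median of 0.02. Dnajb12, which serves Hsp70 at the endoplasmic reticulum, had the lowest p among them (log2 fold change 0.31, SE 0.17, adjusted p = 0.9999 in edgeR). Actin and tubulin genes, whose products TRiC folds, were below 0 in 9 of 10 cases, but by little, with a median of -0.05. Actb averaged 8101 ± 1908 CPM in I/R + Dex and 9362 ± 852.3 CPM in I/R (SD, n = 3 each), and Tuba1b averaged 4612 ± 94.8 CPM in I/R + Dex and 4741 ± 82.5 CPM in I/R.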

How the data were processed

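The deposited gene and transcript counts of the 6 libraries were made by the authors as whole numbers without normalisation, and the FPKM tables were also deposited by the authors. The tools listed in the submitters' processing notes are DESeq2 1.30, HISAT2 2.1.0 and StringTie 2.2.4, and the build is GRCm39. The read counter, its strand setting and handling of multi-mapped reads, and the annotation release were not given in the sources used here. Per transcript, the authors' deposited table holds log2 fold changes (I/R + Dex over I/R) with raw and adjusted p-values, per the file headers. Gene coordinates are spans of the transcripts in that table.

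The members and all lists were chosen with earlier results of these data known. Counts were fitted over all genes, or all transcripts, with edgeR 4.0.16 in R 4.3.3 (filterByExpr, TMM scaling, robust quasi-likelihood test, Benjamini-Hochberg adjustment, threshold 0.05) on group alone, after the fit had been tested on simulated data. CPM are counts over the TMM-scaled library size. DESeq2 1.42.0, limma 3.58.1 (voom), other size factors, no filter, a replicate block, copies added and each library left out were alternatives. Floors of 3 counts cover counting error only. Libraries of a group differed by more than sampling noise (chi-square per degree of freedom 9.9 to 11.4).

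Copies were found with blastn 2.17.0 on GENCODE vM21 transcripts (GRCm38, another build) at 90% identity over at least 200 bases and 50% of the shorter transcript, the last choice made after hits were seen. Of 3 planned count ratios, that of Hspa1a plus Hspa1b over Hspa8 had a 0 and was not tested. Named were all members, the 2 genes of lowest p at most per further list, and for transcripts the most counted of each member and those at least 2-fold apart without overlap and with a mean of 10 counts. Hsf2, Actb and Tuba1b, and transcripts of Hsf1 other than its main one, were chosen after their values were seen.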

Additional observations from a re-analysis of the deposited data

How the results depend on the processing

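No member and no member transcript passed the threshold under any alternative run. The count of 5 genes past it became 17 with DESeq2, 1 with limma voom, 0 to 4 with a library left out and 0 with the replicate block, and it fell to 0 without I/R replicate 2. The count of 0 transcripts became 12 with no filter, 73 with DESeq2 and 0 to 3 with a library left out (3 without I/R replicate 3). Over all genes tested, same-numbered libraries did not deviate together (correlations 0.0234, -0.00961 and -0.00415). Whether they share more than a number for part of the genes was not tested. The replicate block gave a median of -0.21 for the stress-inducible members. With a library left out that median ranged from -0.23 to -0.12, and the inducible gap in summed CPM from -269.9 to -157.0 (-53.3 without Hsp90aa1 and Dnajb1, -126.7 without Hsp90aa1). With a library left out, Dnajb1 ranged from -0.86 to -0.47 and Dnajb6 from -0.63 to -0.52, while Dnajb6 was at -0.21 with copies added. The constitutive median ranged from -0.020 to 0.083 and the intermediate one from -0.12 to -0.030 (0.0012 with copies added). Signs changed for values near 0, such as Hspa8 (to -0.0015 with DESeq2), and for some farther from it. Hspe1 went from -0.25 to 0.035 with copies added, and Ptges3 from 0.14 to -0.15 without I/R replicate 2. Log2 fold changes with a library left out ranged from -0.092 to 0.075 for Hspa8, -0.013 to 0.039 for Hsp90ab1, -0.30 to 0.29 for Cct3, -0.33 to 0.25 for Cct5, -0.016 to 0.079 for Cct4, -0.10 to 0.088 for Dnaja2, -0.29 to 0.038 for Hspa4, -0.040 to 0.39 for Hspd1, -0.016 to 0.34 for Bag3, -0.089 to 0.035 for Stip1, -0.15 to 0.48 for Ptges3, 0.059 to 0.75 for Chordc1 and -0.21 to 0.03 for Dnaja1. The causes were not tested. Low counts limit Hspa1a, Hspa1b, Hspb8, Cryab and Hspe1.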
